A study of Mus musculus with 36 samples.

Results

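The small leucine-rich proteoglycans studied here were decorin (Dcn), lumican (Lum), biglycan (Bgn), fibromodulin (Fmod), osteoglycin (Ogn), asporin (Aspn) and prolargin (Prelp). They were chosen by name, and every probe that the platform annotation assigns to 1 of these 7 genes was used, which gave 14 probes, among 19057 genes with a probe in all. The study profiled Lewis lung carcinoma (LLC) tumours, grown from a mouse lung carcinoma cell line, by Illumina Mouse WG-6 bead arrays. All tumours came from male mice: unirradiated mice gave 10 young and 7 middle-aged tumours, and mice given iron-ion irradiation, as 5 exposures of 0.2 Gy, gave 8 young and 5 middle-aged ones. A further 6 arrays held cultured LLC cells as technical chip controls, in 2 batches of 3, and these were averaged to 1 sample in every test against the tumours. The labels give no strain and no age in weeks. Small pieces of tumour were homogenized whole, so each tumour value mixes the carcinoma cells with host cells, and fewer cells of a type cannot be told apart from less RNA per cell.

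Small leucine-rich proteoglycans are secreted matrix proteins with a core of leucine-rich repeats, and many carry glycosaminoglycan chains. They bind collagen and set the thickness and spacing of its fibrils, and several also bind growth factors or cell surface receptors. In tumours they are known chiefly as products of fibroblasts in the stroma. Decorin and lumican are encoded side by side on mouse chromosome 10, with no annotated gene between them, and asporin and osteoglycin lie on chromosome 13 with only osteomodulin (Omd) between them. Prolargin and fibromodulin lie on chromosome 1 with no protein-coding gene between them.

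Biglycan and osteoglycin were the members with a probe detected on all 6 arrays of cultured cells, which for osteoglycin was 1 of 3 probes. Their promoters are shown for that reason, with prolargin's, whose transcript had its highest value in the same tumour as biglycan's. Each sequence runs from 250 bases before to 50 bases after the start given by the promoter table used here, from RefSeq on GRCm38.p6. Of the 7 genes 5 matched that table. The prolargin window lies inside the gene, whose annotated span is chr1:133910304-133930102, and not at its upstream end. Capitals mark matches to TATAAA or GGGCGG on either strand.
Bgn, chrX:73483351-73483650, plus strand: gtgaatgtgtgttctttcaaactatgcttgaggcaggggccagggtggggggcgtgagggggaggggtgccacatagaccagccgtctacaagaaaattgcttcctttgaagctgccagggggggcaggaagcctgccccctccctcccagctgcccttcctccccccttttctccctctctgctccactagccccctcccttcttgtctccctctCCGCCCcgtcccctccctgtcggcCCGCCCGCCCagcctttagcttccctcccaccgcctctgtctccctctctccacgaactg
Ogn, chr13:49607765-49608064, plus strand: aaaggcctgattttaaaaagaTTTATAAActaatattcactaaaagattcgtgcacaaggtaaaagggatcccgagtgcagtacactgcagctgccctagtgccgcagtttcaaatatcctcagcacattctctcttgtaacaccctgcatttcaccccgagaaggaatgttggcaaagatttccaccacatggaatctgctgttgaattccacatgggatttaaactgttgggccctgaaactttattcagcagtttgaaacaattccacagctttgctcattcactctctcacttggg
Prelp, chr1:133921352-133921651, minus strand: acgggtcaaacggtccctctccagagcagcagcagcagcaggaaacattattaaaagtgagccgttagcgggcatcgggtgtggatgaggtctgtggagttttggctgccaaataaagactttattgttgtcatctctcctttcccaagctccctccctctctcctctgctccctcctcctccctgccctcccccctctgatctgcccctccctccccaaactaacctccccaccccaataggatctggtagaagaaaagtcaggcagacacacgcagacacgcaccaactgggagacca
The biglycan promoter had a GC content of 63.7% and 3 matches to GGGCGG, of which some overlapped, and none to TATAAA. The osteoglycin promoter had a GC content of 42.3% and 2 matches to TATAAA, which overlapped on opposite strands, and none to GGGCGG. The prolargin window, which lies inside the gene, had a GC content of 55.3% and no match to either motif. Over 32851 promoters of the same length the median GC content was 52.7%, 35.7% held GGGCGG and 13.6% held TATAAA.

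The values below are normalized log2 intensities, and a probe was called detected on an array where the deposited detection p was under 0.05. Tumour arrays had between 17329 and 19843 detected probes of 45281, apart from the 2 dim arrays of young irradiated replicates 8 and 6, with 14828 and 11860. The 75th percentile of signal was 1123 on the array of young irradiated replicate 2 and 863 on that of middle-aged unirradiated replicate 1, against 160 to 462 on the other 26 tumour arrays that were not dim. The epithelial keratins Krt8 and Krt18 were detected on all arrays. Skeletal muscle markers had a mean log2 intensity above 8 in 5 tumours, 3 of them young unirradiated, 1 young irradiated and 1 middle-aged irradiated, against at most 5.37 in cultured cells. Skin markers reached a mean of 7.45 in 1 young irradiated tumour.

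All 4 decorin probes, both lumican probes and the biglycan probe were detected on at least 29 of 30 tumours. Of the 3 osteoglycin probes, 1 was detected on 30 of 30 tumours and on all 6 cell arrays, and the others on no tumour or cell array. Prolargin was detected on 11 of 30 tumours, while fibromodulin and asporin were not detected on any tumour or cell array and entered no test. The 5 remaining genes passed the filter of detection on at least 5 tumours, each represented by its brightest probe, ranked by the mean over the tumours.

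Decorin and lumican were at or near the detection limit in cultured LLC cells and high in every tumour, whereas biglycan was detected on all tumour and cell arrays. Decorin, which binds collagen fibrils and transforming growth factor beta, had a mean log2 intensity of 13.88 ± 0.26 (SD, n = 30 tumours). On the cell arrays decorin read 5.27, 5.16 and 5.34 in batch 1, and 5.86, 5.98 and 5.51 in batch 2, and it was called detected on 2 of the 6, both of batch 2. The lowest tumour, at 13.01, stood far above the highest cell array. The difference was 8.36 on the log2 scale (SE 0.26, limma adjusted p = 2.27e-20), against cell readings that are mostly background. In this and the other tests against cells, which enter as 1 averaged sample, the tumours alone supply the spread. The other 3 decorin probes, undetected in cells, were at least 104-fold, 7.43-fold and 3.40-fold higher in tumours.

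Lumican, a collagen-binding keratan sulfate proteoglycan, had a mean log2 intensity of 12.66 ± 0.54 (SD, n = 30 tumours). It was not detected on any cell array, with values of 4.78, 4.85 and 4.99 in batch 1 and 4.75, 5.05 and 5.00 in batch 2. All tumours lay above all cell arrays, and the 2 lumican probes were at least 113-fold and 43.5-fold higher in tumours, with a limma adjusted p of 7.65e-13 for the brighter. An "at least" fold sets the tumour mean against the lowest signal that counts as detected on the cell arrays.

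Biglycan, which can signal through Toll-like receptors, had a mean log2 intensity of 10.82 ± 0.71 (SD, n = 30 tumours). On the cell arrays it read 11.41, 11.50 and 11.37 in batch 1, and 11.35, 11.40 and 11.34 in batch 2. The cells lay within the range of the tumours, which ran from 9.65 to 13.16, with 25 of 30 tumours below every cell array and 2 above every one. The difference of -0.58 (SE 0.66, 95% interval -1.92 to 0.77, limma adjusted p = 0.588) did not pass the test.

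**Figure D1:**
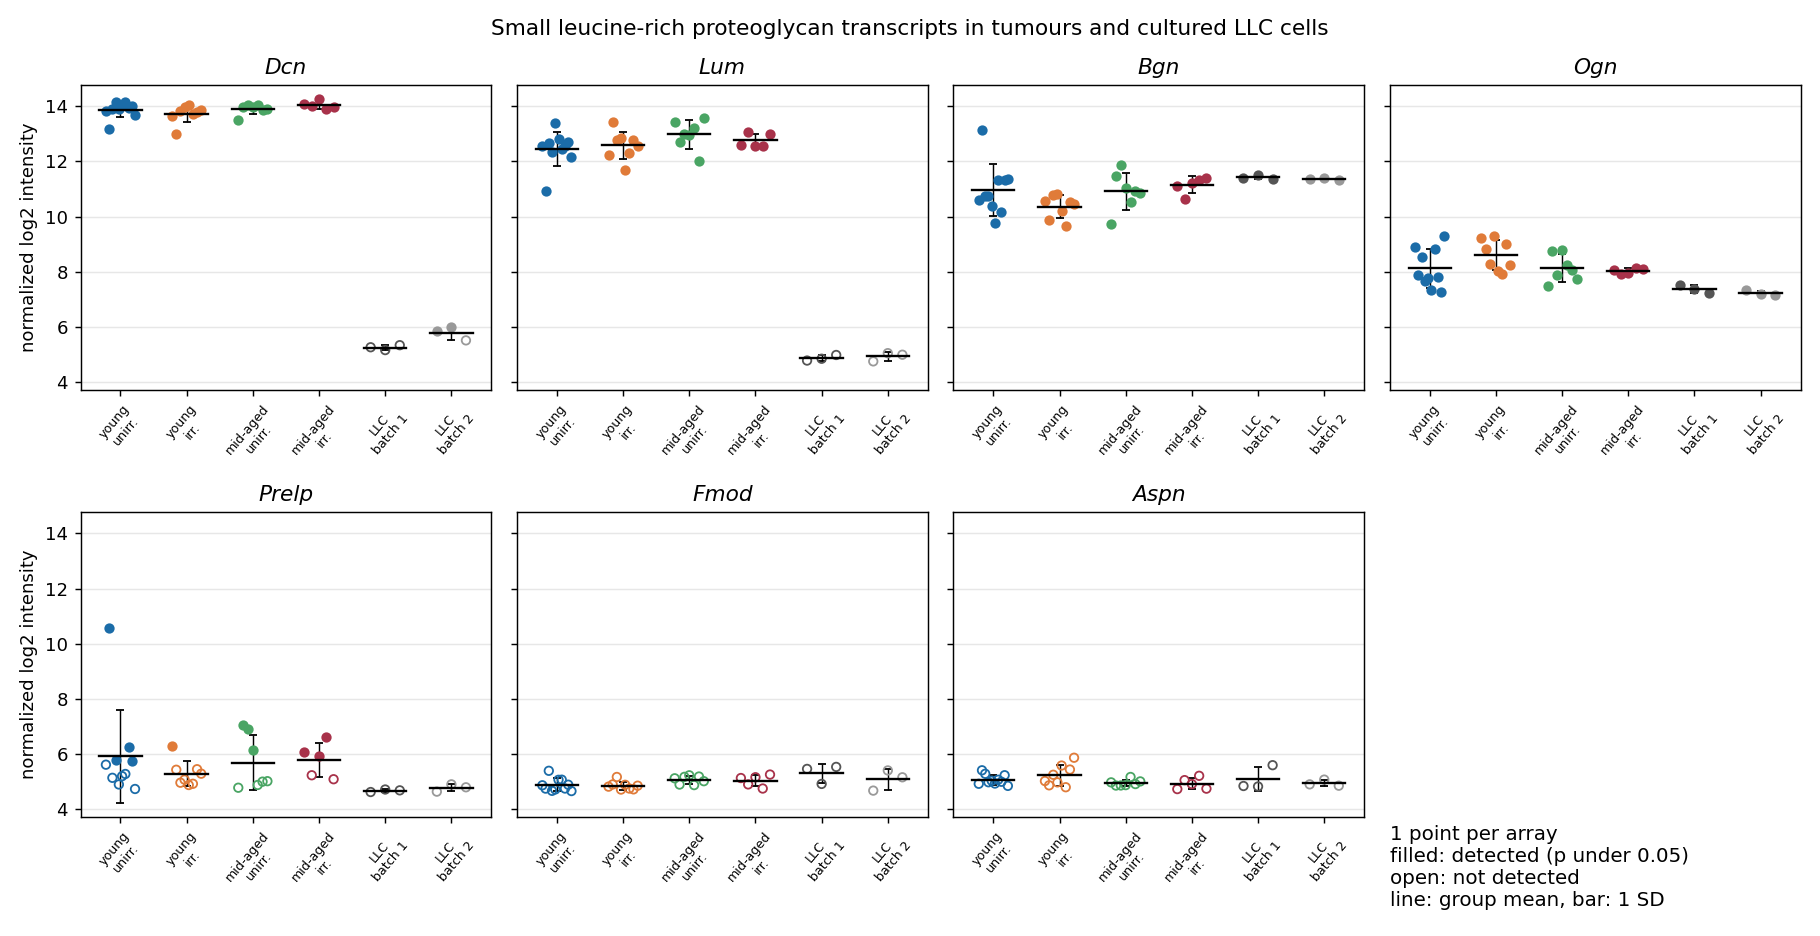
Normalized log2 intensity of the brightest probe of each of the 7 genes, 1 point per array, with the group mean as a line and 1 SD as a bar. Filled points are detected and open points are not. Decorin and lumican separate tumours from LLC cells, biglycan is high in both, and fibromodulin and asporin are undetected throughout.

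Osteoglycin, a member of the family also known as mimecan, had a mean log2 intensity of 8.24 ± 0.57 (SD, n = 30 tumours) against 7.52, 7.38 and 7.23 in batch 1 and 7.33, 7.18 and 7.16 in batch 2 of the cells. In 27 of 30 tumours it was above every cell array, but the difference of 0.94 (SE 0.54, 95% interval -0.16 to 2.04) did not pass, with a limma adjusted p of 0.232. Prolargin, which binds collagen and basement membrane heparan sulfate, did not pass (limma adjusted p = 0.597), and since it was undetected on all 6 cell arrays and on 19 of 30 tumours no size is given. Fibromodulin, a collagen-binding member prominent in tendon, averaged 4.95 in tumours and 5.20 in cells, and asporin, which has an aspartate-rich end, 5.06 and 5.02, all undetected. In all, 2 of the 5 tested members were higher in tumours and 0 lower, where 20.7% of all 11105 genes tested were called, 11.7% higher and 9.03% lower, and 32.9% had an unadjusted p under 0.05. Every tumour was above every cell array for those same 2 members, and for 10.7% of the genes tested, while every tumour was below every cell array for 0 members and 8.94% of genes. Each gene's probe was the brightest over the tumours, and decorin, lumican and prolargin could meet the detection filter only through the tumours. Both choices lean towards genes higher in tumours, for the members as for all genes tested.

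The contrast of decorin and lumican with biglycan was measured as a log2 ratio within each array, from the normalized values. Compared between arrays, this ratio depends on the normalization, and it says nothing of the relative abundance of the transcripts. The decorin to biglycan log2 ratio averaged 3.06 in the tumours, from 0.02 to 4.27, and was -5.49 and -5.42 on the 2 cell arrays where decorin was detected. The lumican to biglycan log2 ratio averaged 1.84 in the tumours, from -2.24 to 3.70. In the cells, where lumican was not detected, it was at most -5.55, with lumican set at the lowest signal that counts as detected. For both ratios 30 of 30 tumours exceeded the cells, and with the cells as 1 sample no test is given. A decorin to lumican ratio in the cells would set background readings against each other and is not reported.

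**Figure D2:**
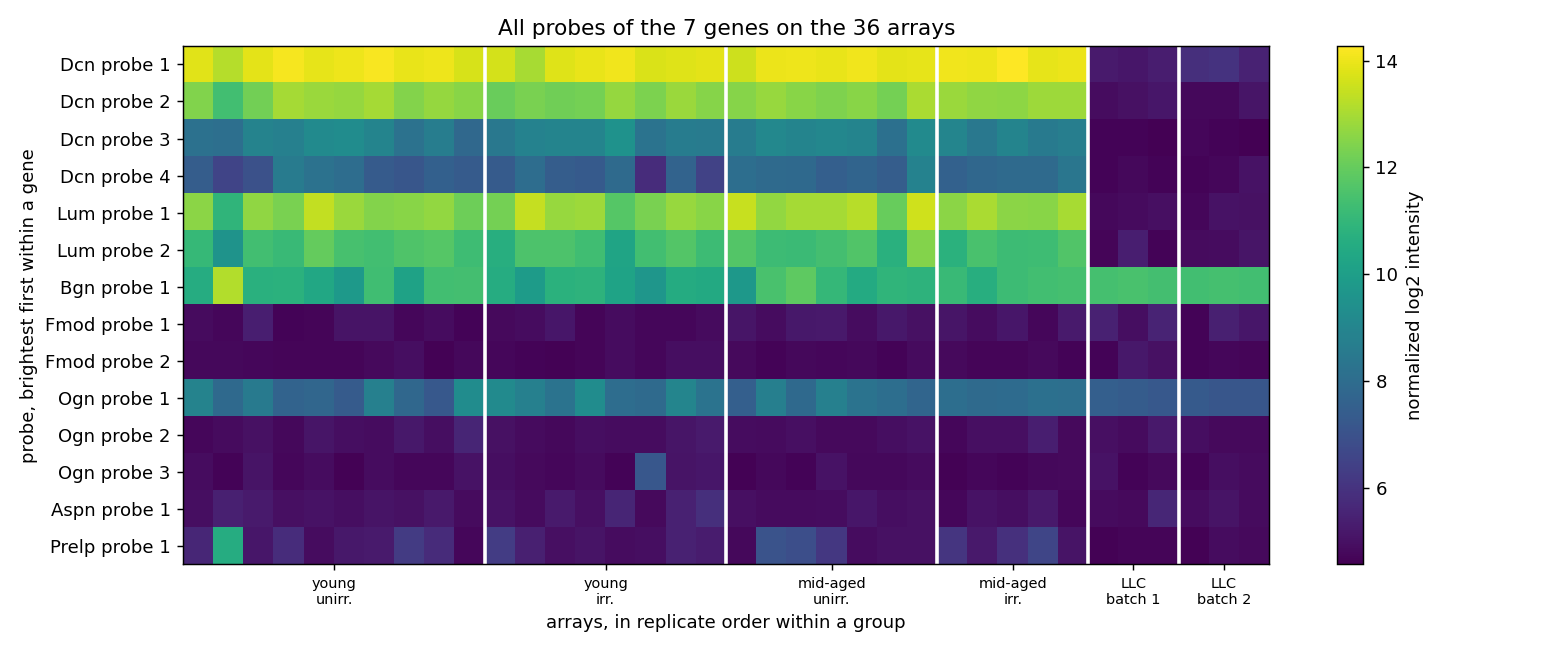
Normalized log2 intensity of the 14 probes (rows, brightest first within a gene) on the 36 arrays (columns, in replicate order within a group). All 4 decorin and both lumican probes are dark on the 6 cell arrays, while the biglycan row is bright across all columns.

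Genes around the proteoglycans were read from lists. Among the fibrillar collagens and their assembly factors, 5 of 14 tested were higher in tumours and 1 lower, with a median difference of 1.10 against -0.07 over all genes tested. These included fibronectin (Fn1, 2.80), the collagen VI chains Col6a1 (2.26) and Col6a2 (2.96), and Col1a1, the main chain of collagen I, at least 11.8-fold higher and undetected in cells. Of 13 fibroblast markers 5 were higher and 1 lower, 7 did not pass and 4 were below 0, with a median of 0.79. The higher ones included Pdgfra at 4.48, Dpt at 3.73, Pdpn at least 35.3-fold and Thy1 at least 7.03-fold. Of the 15 fibroblast markers with a probe, 6 were detected on each cell array of batch 1 and 7 on each of batch 2. Of the other cell type lists, 10 of 10 macrophage, 5 of 10 endothelial, 3 of 6 neutrophil and 1 of 6 pericyte and smooth muscle markers were higher and 0 lower, where 11.7% of all genes were higher. No marker was called among 15 of skeletal muscle, 5 epithelial, 4 of T and B cells, 2 of tendon and cartilage and 1 of skin, and of 2 adipocyte markers 1 was lower. The mean of the fibroblast list ran from 8.11 to 8.80 over the tumours and from 6.78 to 6.97 over the cell arrays, and its part in the decorin and lumican difference was not tested.

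Of the enzymes that build glycosaminoglycan chains 2 of 17 were higher and 1 lower, which at 17.6% called is near the 20.7% of all genes, with a median of -0.26. The chondroitin sulfotransferase Chst11 was higher by 1.92 and Csgalnact1, which starts chondroitin chains, by 0.82, while the keratan sulfotransferase Chst1 was -1.57. Among ligands and receptors that bind the family, 7 of 18 were higher and 0 lower, with a median of 0.84. They included the receptor Tlr2 (3.32), its co-receptor Cd14 (1.84), Tgfb1 (1.72) and Egfr (1.56). Among proteases that can cleave these proteins, 5 of 7 were higher and 0 lower, with a median of 2.49, including Mmp9 (3.30), Mmp3 (2.52), Adamts4 (2.18) and Mmp14 (1.33). Of the other family members tested, Kera and Podnl1, 0 of 2 passed.

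Host age and irradiation left these transcripts without a called difference. In each of 6 comparisons, 0 of 5 tested members passed limma with Benjamini-Hochberg adjustment, among 30 member tests of which 3 had an unadjusted p under 0.05 and none an adjusted p under 0.345. The whole table of 10907 genes gave few calls too. The share called was 0% for age in unirradiated mice, 0.00917% for age in irradiated mice, 0% for irradiation in young mice, 0% for irradiation in middle-aged mice, 0.0183% for middle-aged irradiated against young unirradiated, and 0% for the difference between the irradiation effects. At an unadjusted p under 0.05 the shares were 13.8%, 7.31%, 5.54%, 6.33%, 5.93% and 4.42% in the same order. These comparisons share groups and so are not independent.

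Lumican had the smallest adjusted p of the members in these comparisons. In tumours of young unirradiated mice it ranged from 10.92 to 13.39 with a median of 12.56, and in those of middle-aged unirradiated mice from 12.02 to 13.56 with a median of 12.98. The groups overlapped. The difference was 0.53 (SE 0.25, 95% interval 0.02 to 1.04), with an unadjusted p of 0.0404 and a limma adjusted p of 0.345. That difference is for the brighter lumican probe. The other lumican probe, in a fit by probe, gave 0.21 (SE 0.26, limma adjusted p = 0.747). In young irradiated mice lumican ranged from 11.70 to 13.41 with a median of 12.67, and in middle-aged irradiated mice the 5 values were 12.60, 13.06, 12.58, 12.56 and 13.01. There the difference with age was 0.18 (SE 0.29). The difference with irradiation was 0.13 in young mice (SE 0.24) and -0.23 in middle-aged mice (SE 0.30). None of these passed. The other lumican probe gave 0.09, -0.06 and -0.18 in the same order, so its sign differed for the young mice. None of its differences passed.

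By its brightest probe and in these normalized values, decorin was nearly level over the 4 groups. It ranged from 13.18 to 14.16 (median 13.93) in young unirradiated, from 13.01 to 14.05 (median 13.80) in young irradiated and from 13.52 to 14.05 (median 13.96) in middle-aged unirradiated mice. The middle-aged irradiated values were 14.08, 14.03, 14.27, 13.92 and 13.98, and 14.27 was the highest of all tumours. The order of the means was middle-aged irradiated, middle-aged unirradiated, young unirradiated, young irradiated, and no difference between neighbours in it passed the test. For this probe the one unadjusted p under 0.05 was for age in irradiated mice, 0.32 (SE 0.15, p = 0.0387, limma adjusted p = 0.682). Its interval for age in unirradiated mice was -0.24 to 0.28. Fitted probe by probe, the other decorin probes gave 0.37, -0.05 and 0.67 for age in irradiated mice. None of them passed there (limma adjusted p = 0.577, 0.956 and 0.557). Group means of the last of these, the dimmest, ran from 7.25 in young irradiated to 7.92 in middle-aged irradiated mice. With the authors' normalized values the brightest probe gave -0.38 for age in unirradiated mice, which did not pass.

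Biglycan ranged from 9.77 to 13.16 (median 10.75) in young unirradiated, from 9.65 to 10.83 (median 10.50) in young irradiated and from 9.75 to 11.86 (median 10.92) in middle-aged unirradiated mice. The middle-aged irradiated values were 11.13, 10.64, 11.23, 11.34 and 11.42, of which 4 of 5 were above all of the young irradiated. For age in irradiated mice the difference was 0.79 (SE 0.37, unadjusted p = 0.0416, limma adjusted p = 0.682), and irradiation in young mice gave -0.59 (SE 0.31, limma adjusted p = 0.907). Without young unirradiated replicate 2 that irradiation difference was -0.35. For osteoglycin the difference was 0.47 with irradiation in young mice (SE 0.25) and -0.56 with age in irradiated mice (SE 0.30), and neither passed. The prolargin intervals were the widest, reaching 2.42 for the difference between the irradiation effects.

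**Figure D3:**
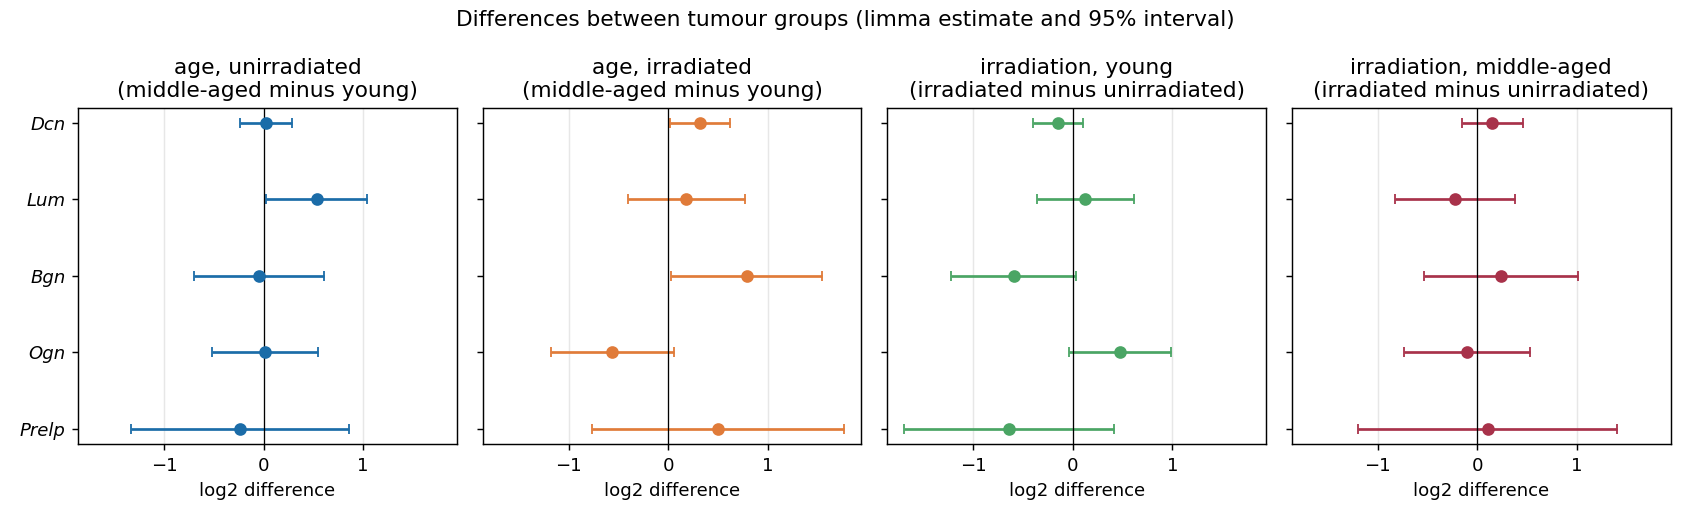
Log2 difference (horizontal axis) with its 95% interval for the 5 tested members in 4 comparisons between tumour groups, from limma. Each member is shown by its brightest probe. Most intervals span 0, and the 3 that just clear it are those of Lum with age in unirradiated mice and of Dcn and Bgn with age in irradiated mice.

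The ratios were no different in this respect. Of 12 exact permutation tests of the 3 ratios in 4 comparisons, 0 passed after Benjamini-Hochberg adjustment. The smallest p was for decorin to biglycan with age in irradiated mice, at 2.90 ± 0.34 (SD, n = 5) against 3.37 ± 0.39 (SD, n = 8), with an exact permutation p of 0.0552, two-sided, and an adjusted p of 0.361. Decorin to lumican with age in unirradiated mice was 0.92 ± 0.59 (SD, n = 7) against 1.43 ± 0.46 (SD, n = 10), with an exact permutation p of 0.0625, two-sided. That difference of -0.51 was -0.19 (exact permutation p = 0.338) with the mean of the detected probes of each gene. It was -0.66 with median scaling (exact permutation p = 0.0475, adjusted 0.443) and -0.66 with the authors' normalized values (exact permutation p = 0.0468, adjusted 0.541). Of 68 tested entries of the collagen, fibroblast, chain-building, receptor and protease lists, 0 passed in any age or irradiation comparison by limma, and 13 had an unadjusted p under 0.05 for age in unirradiated mice against 3 to 5 in each of the other comparisons. That is 19.1% for age in unirradiated mice, where 13.8% of all genes had such a p.

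One tumour stood apart in its proteoglycans. Young unirradiated replicate 2 had the lowest lumican of all tumours, 10.92, and a decorin of 13.18, with the highest biglycan, 13.16, and the highest prolargin, 10.56. The next highest prolargin in its group was 6.26. The array of this tumour had a 75th percentile of signal of 160, the lowest of the tumour arrays that were not dim, with 18813 detected probes. The mean of the collagen list was 10.23 in this tumour against 8.59 to 9.10 in the other 9 of its group, the fibroblast list 8.71 against 8.21 to 8.41, and the endothelial list 8.67 against 7.69 to 8.46. Neutrophil markers averaged 9.42 there against 6.75 to 9.38, and the muscle list, at 5.38, was above 2 of the other 9.

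The members were then compared with each other across tumours. With group means removed, 0 of 21 pairs passed a permutation test over the 30 tumours after adjustment. Since 11 of these pairs hold fibromodulin or asporin, which were undetected, the same p-values were also adjusted over the 10 pairs of tested members, and 2 then passed, biglycan with prolargin (adjusted permutation p = 0.0328) and lumican with biglycan (0.0442). By Spearman's rho 0 of those 10 passed, and without young unirradiated replicate 2 0 of 10 passed by either measure. Without the dim arrays 2 passed by rho, lumican with biglycan and lumican with prolargin (adjusted permutation p = 0.0419 for each). Biglycan with prolargin alone passed by rho without the tumours with muscle transcripts (adjusted permutation p = 0.0448) and with median scaling (0.0430). Biglycan and prolargin, the latter detected on 11 of 30 tumours, had the highest Pearson r, 0.72 (permutation p = 0.00328, adjusted over 21 pairs 0.0689; Spearman rho 0.44, permutation p = 0.0238), which was 0.45 without the 2 tumours farthest in biglycan. Within groups that r was 0.77 in young unirradiated, 0.19 in young irradiated and 0.84 in middle-aged unirradiated mice, and without young unirradiated replicate 2 it was 0.40 (adjusted p = 0.408 by permutation).

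Lumican and biglycan had an r of -0.57 (permutation p = 0.00885, adjusted 0.0929; Spearman rho -0.41, permutation p = 0.0318), which was -0.38 without the 2 farthest tumours and -0.30 without young unirradiated replicate 2. Within groups it was -0.85, 0.07 and -0.40 in the same order, so the sign was not shared by all. Lumican and prolargin had an r of -0.59 (permutation p = 0.0192, adjusted 0.135, Spearman rho -0.44, permutation p = 0.0202). Their r was -0.20 without young unirradiated replicate 2. Decorin and lumican, the neighbouring genes, had an r of 0.08 (permutation p = 0.695, adjusted 0.907; Spearman rho 0.01, permutation p = 0.945), or -0.14 without the 2 farthest tumours, with 0.75, -0.68 and -0.22 within groups. That value is for the brightest decorin probe: the other 3 decorin probes correlated with the same lumican probe at 0.50, 0.37 and 0.47, and the mean of the detected probes of each gene gave 0.50 (permutation p = 0.0192, adjusted over 21 pairs 0.101). With median scaling in place of quantile normalization, lumican with biglycan turned to 0.33, and decorin with lumican reached 0.67 with an adjusted permutation p of 0.0233. The group of 5 was too small for a value of its own.

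**Figure D4:**
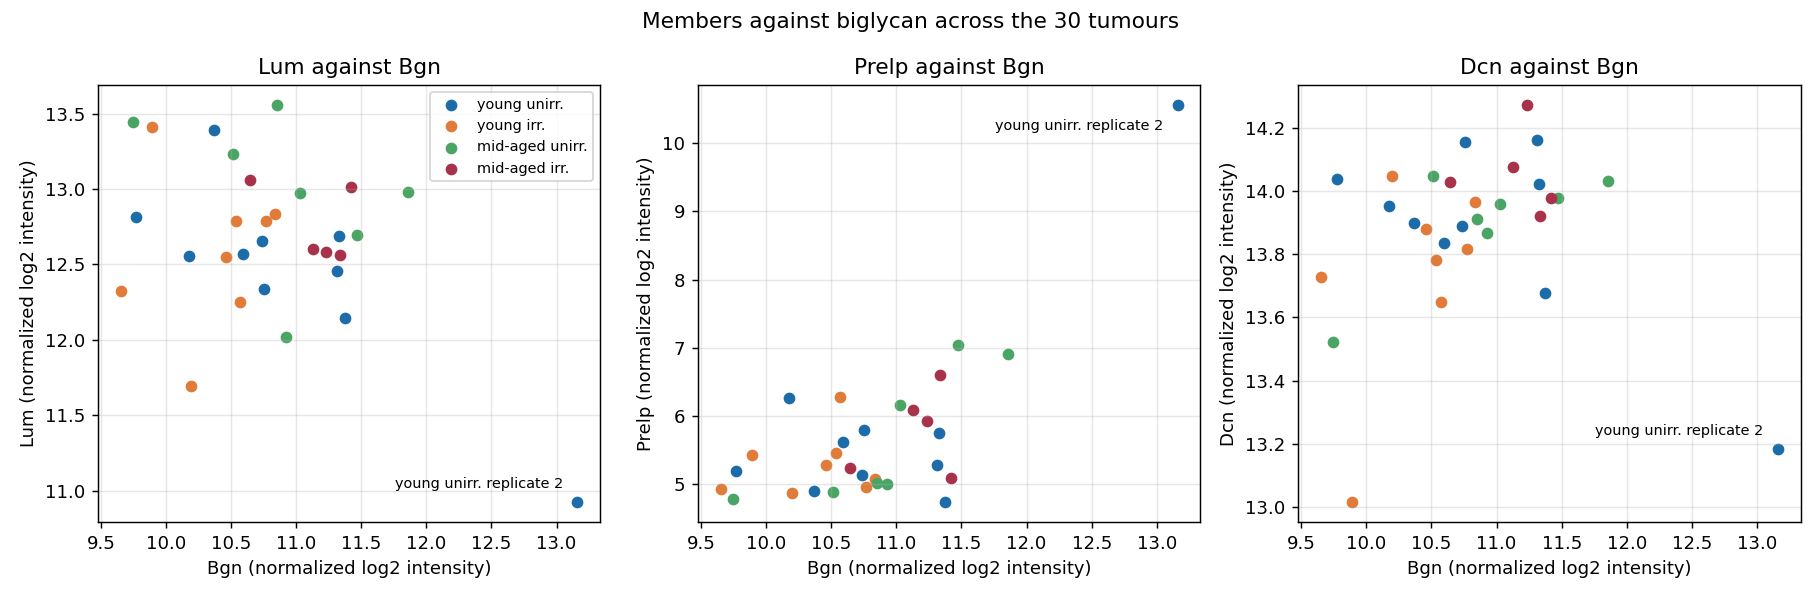
Lumican, prolargin and decorin (vertical axes) against biglycan (horizontal axis), all normalized log2 intensity, for the 30 tumours, coloured by group. Young unirradiated replicate 2, labelled, lies alone at high biglycan, with high prolargin and low lumican.

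The 4 decorin probes correlated with each other at r of 0.12 to 0.57 over the 30 tumours, while the 2 lumican probes correlated at 0.89. The lowest normalized decorin values belonged to young irradiated replicate 2 (13.01), young unirradiated replicate 2 (13.18) and middle-aged unirradiated replicate 1 (13.52), and the first and last of these are the arrays with the highest 75th percentile of signal. Deposited signals of decorin there were 18791 and 20401, near the top of the range of tumours, which reached 22092. With group means removed, decorin correlated with the log2 of that percentile at r of -0.39 (permutation p = 0.0831, adjusted 0.277, Spearman rho -0.03). The r was 0.19 without the 2 arrays farthest in brightness. For lumican r was 0.41 (permutation p = 0.0251, adjusted 0.251, Spearman rho 0.33), and 0.23 without those 2 arrays. Neither passed after adjustment, and whether array brightness caused the low decorin values was not tested.

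As a description, the 5 genes whose pattern was most like each of the main members over the 30 tumours, by Pearson r with group means removed, were different for the 3. For biglycan they were Col1a1 (0.89), Cthrc1 (0.84), Fbln2 (0.83), Mmp2 (0.83) and Col1a2 (0.81), which encode collagen I chains, other matrix proteins and a matrix protease, and prolargin ranked 19 of 10906. For lumican they were Fn1 (0.80), Tgfbr1 (0.79), Shprh (0.79), Cep57l1 (0.79) and Arsb (0.77), which include fibronectin, a transforming growth factor beta receptor and a glycosaminoglycan-degrading sulfatase. For decorin they were Nol3 (0.76), Cd164 (0.75), Rpl31 (0.75), Eif4a1 (0.74) and Eif3f (0.74), which include a ribosomal protein and translation initiation factors, and lumican ranked 4378. These values share arrays and normalization and carry no test. The decorin list, with the rank of lumican in it, is that of the brightest decorin probe, whose r with lumican was 0.08. The other decorin probes gave 0.50, 0.37 and 0.47 with the same lumican probe. With median scaling the brightest decorin probe reached 0.67 with lumican. Young unirradiated replicate 2, with the highest biglycan and a collagen list mean above the rest of its group, is among the 30 tumours. The values were not computed without it.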

How the data were processed

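The deposited table held, per the file headers, the mean bead intensity (AVG_Signal) and a detection p-value for each of 45281 probes on 36 arrays, not normalized. A second deposited table held the authors' normalized intensity values; per the labels and the submitters' processing notes GenomeStudio was used, with rank normalization. Here limma 3.58.1 in R 4.3.3 applied normexp background correction whose background level came from the detection p-values (neqc), quantile normalization over all arrays, an offset of 16 and log2. Probes were named from the platform annotation: 34885 had 1 symbol, 18 several and 10378 none. Each gene was represented by its brightest probe over the tumours and tested where detected on at least 5 tumours (10907 genes), or on at least 5 arrays for tumours against cells (11105 genes). limma was fitted to 4 group means with Benjamini-Hochberg adjustment at 0.05 over all genes. Tests of limma were tried on simulated data.

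Ratios were tested by exact permutation and pairs of members by 100000 permutations within groups, adjusted over 21 pairs and, as added after the data were seen, over the 10 pairs of tested members. The members and gene lists were chosen with earlier results of these data known. All 7 members are named, with up to 4 genes per described list by smallest p and the 5 most like patterns of Dcn, Lum and Bgn. Replicates are separate tumours by label, and nothing says from how many animals, so a p-value covers the spread among the tumours sampled, part of which may be technical. Same-numbered tumours of different groups correlated at -0.32 to 0.38 with a median of 0.05. This range was not set against that of differently numbered tumours, so it cannot decide whether the numbers pair samples. No label gives a pairing, and none was used in the main fit. Alternatives covered background correction, scaling, the authors' values, detection filter, probe choice, array weights, left-out arrays and each left-out replicate. The number of arrays limits precision.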

Additional observations from a re-analysis of the deposited data

Results flagged for a closer look

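In 32 groups of 5 to 10 values checked for a value far from the rest, chance alone marks about 1 in 20, and 9 were marked. The ratios reuse the values of the genes, and the same tumours recur, so the checks are not independent. The 9 therefore cannot be read as an excess over chance. Prolargin was detected on 11 of 30 tumours, so its marks are set largely against background readings. Of the 9, 6 came from young unirradiated replicate 2: decorin 13.18 and lumican 10.92 were its group's lowest, biglycan 13.16 and prolargin 10.56 the highest, and the log2 ratios of decorin to biglycan, 0.024, and of lumican to biglycan, -2.24, the lowest. The other 3 were decorin in young irradiated replicate 2 at 13.01, decorin in middle-aged unirradiated replicate 1 at 13.52, both the lowest of their groups, and prolargin in young irradiated replicate 1 at 6.29, the highest of its group.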

How the results depend on the processing

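The count of members called was 2 against the cells and 0 in the other comparisons under every alternative run, left-out replicates included. Over all genes, the count against cells was 2302, and 368 with median scaling, while age in unirradiated mice gave 0, or 413 with array weights, 29 without the dim arrays and 123 without young unirradiated replicate 5 (at most 3 without any other tumour), and irradiation in middle-aged mice gave 0, or 227 with array weights. Leaving out one tumour gave 0 to 3 for age in irradiated mice, 0 to 7 for middle-aged irradiated against young unirradiated (7 without middle-aged irradiated replicate 4) and 0 or 1 for irradiation in young mice. Median scaling also moved the median of all genes, by 0.22, 0.66, -0.31 and 0.11 for age in unirradiated, age in irradiated, irradiation in young and irradiation in middle-aged mice, 0.33 for middle-aged irradiated against young unirradiated and 0.42 for the difference between irradiation effects, so its member values are to be read against those shifts. Differences that changed sign were all uncalled. Under median scaling these were, for age in unirradiated mice, Bgn 0.18 and Dcn -0.030; for age in irradiated mice, Ogn 0.11; for Lum, irradiation in young mice -0.44, in middle-aged mice 0.036 and the difference between them 0.48; and Ogn 0.30 in middle-aged irradiated against young unirradiated. With the authors' values Dcn was -0.38 and Ogn -0.021 with age in unirradiated mice, and Lum was -0.029 with irradiation in young mice and 0.017 for the difference between irradiation effects. With no background correction Ogn was -0.011 with age in unirradiated mice, with array weights Bgn was 0.095 there and Prelp 0.025 in middle-aged irradiated against young unirradiated, and without the tumours with muscle transcripts Prelp was -0.10 with irradiation in middle-aged mice. With the replicate number as a block, which no label gives as a pairing, Bgn was 0.012 with age in unirradiated mice and Prelp -0.11 with irradiation in middle-aged mice. Ratios that changed sign were decorin to biglycan with age in unirradiated mice, -0.21 with median scaling and -0.21 with the authors' values, and with irradiation in middle-aged mice, 0.089 and 0.11, and decorin to lumican with age in irradiated mice, -0.070 and -0.075. Among the 10 pairs of tested members, correlations that changed sign were Ogn with Prelp at -0.031 without background correction, -0.0017 with median scaling and -0.011 with the authors' values, Dcn with Bgn at 0.46 and 0.13 under those last 2 settings, and with median scaling Dcn with Ogn at 0.44, Lum with Bgn at 0.33 and Lum with Ogn at 0.61. The count of pairs passing was 0, and 2 with median scaling, 1 with the authors' values, 1 without the muscle tumours and 2 when adjusted over the pairs of tested members alone, a choice made after seeing the data.

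Leaving out one tumour at a time gave Bgn -0.20 to 0.20, Dcn -0.056 to 0.085, Ogn -0.10 to 0.14 and Prelp -0.47 to 0.27 with age in unirradiated mice. It gave Lum 0.056 to 0.30 with age in irradiated mice, and Lum -0.045 to 0.25 with irradiation in young mice, Ogn -0.21 to 0.0055 and Prelp -0.10 to 0.33 with irradiation in middle-aged mice, and Ogn -0.19 to 0.038 and Prelp -0.34 to 0.38 in middle-aged irradiated against young unirradiated. Ratios ran from -0.26 to 0.22 and -0.22 to 0.043 for decorin to biglycan with age in unirradiated and irradiation in middle-aged mice, and -0.084 to 0.31 for decorin to lumican with age in irradiated mice. Correlations ran from -0.39 to 0.36 for Dcn with Lum, -0.32 to 0.33 for Dcn with Bgn, -0.50 to 0.12 for Dcn with Prelp, -0.039 to 0.17 for Ogn with Prelp, -0.63 to -0.30 for Lum with Bgn, -0.69 to -0.20 for Lum with Prelp and 0.40 to 0.77 for Bgn with Prelp, and the count of passing pairs from 0 to 3. The cause of these shifts was not tested.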
